A study of Rattus norvegicus with 15 samples.

Results

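The 9 genes described here handle retinoic acid in the rat molar tooth germ, and they were chosen by their place in this pathway around Cyp26c1, which was itself selected on its rise at E18. They were 9 of the 14185 genes in a table of salmon read counts that covered 15 libraries. Each library was made from the RNA of 1 dissected first molar germ of a DA/HanRj rat embryo, an inbred rat strain, with no treatment named and with 5 libraries at each of 3 stages, which are called E15 (E15.5 in the labels), E17 (labelled E17.5) and E18 after the embryonic day. All were wild type, from the design text for E15 and E17 and from the labels for E18. The E18 teeth were labelled lower first molar and the E15 and E17 teeth only Molar 1. Each stage carried a title code of its own, and the labels do not say what the code stands for. Stage and whatever the code marks cannot be told apart. Among the E17 libraries, replicates 1 and 2 came from the left and the right side of 1 embryo.

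Retinoic acid is a small signalling molecule made from vitamin A. Retinaldehyde dehydrogenases of the Aldh1a family make it, cellular binding proteins (Crabp) carry it in the cytoplasm, nuclear receptors (Rar with Rxr) bind it and switch target genes on, and cytochrome P450 enzymes of the Cyp26 family break it down. Where synthesis and breakdown lie next to each other the tissue holds a gradient of the molecule, and both an excess and a lack of vitamin A are known to disturb tooth formation.

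Library totals ranged from 10993502 to 27571541 counts, and values below are normalized counts, which are counts divided by a size factor for the depth of each library (the median-of-ratios method of DESeq2). They were not corrected for transcript length, so values are compared between stages and not between genes. A library with no count of a gene could still have held up to 3 counts, which is 1.45 to 3.68 normalized counts. Mean correlations with the other libraries of the same stage were 0.944 to 0.983 except for E18 replicate 3, which stood apart at 0.873. Of the marker genes of dental epithelium, 8 of 12 could be joined to rows, and their summed level went from 4624 to 6808 at E15 to between 9788 and 11385 at E17 and between 12970.2 and 17309.8 at E18. The 10 markers of dental mesenchyme, all joined, summed to 25109 to 28895 at E15, 20517 to 23451 at E17 and 18649 to 23130.1 at E18, so the share of the epithelium's markers moved with stage. The sum of the 9 enamel knot markers, genes of the epithelial signalling centre, went from 504 to 752 at E15 to between 1412 and 1877 at E17 and between 2165 and 3157 at E18. Single markers differed, with 4 of 8 tested higher at E17 than at E15 and 2 of 9 higher at E18 than at E17. Fgf9 had its highest mean at E15 (125, then 88.3 and 109), and Dkk4 (115, 145 and 110) and Fgf20 (7.77, 19.3 and 14.7) at E17. Bone cell markers (4 of 5 joined) summed to 51205 to 134790 at E15, 127148 to 259901 at E17 and 191940 to 278023 at E18. Most of that sum was the collagen Col1a1, with stage means of 87435, 198559 and 240282. Alpl (2597, 3129 and 2836) and Dmp1 (76.1, 172 and 59.2) were highest at E17. Of these 4 markers, 2 were higher at E17 than at E15 and 0 were higher at E18 than at E17. Endothelium and nerve were covered by 1 gene each, and lists for muscle, cartilage, blood and oral epithelium could not be joined. No joined marker was at 0 in all 5 libraries of a stage, and in such whole teeth fewer cells of a type and less RNA per cell cannot be told apart.

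Cyp26c1 and Cyp26a1 encode enzymes that oxidise retinoic acid to inactive products, and in the rat annotation they are direct neighbours on chromosome 1, with 0 genes between them. Their promoter sequences are shown because the levels of both neighbours were highest at E18. The 250 bases before each annotated start are given 5′ to 3′ on the plus strand, from RefSeq in build GRCr8, at chr1:244870162-244870411 for Cyp26c1 and chr1:244883572-244883821 for Cyp26a1, with capitals for a pair of receptor motifs 5 bases apart.
Cyp26c1 promoter: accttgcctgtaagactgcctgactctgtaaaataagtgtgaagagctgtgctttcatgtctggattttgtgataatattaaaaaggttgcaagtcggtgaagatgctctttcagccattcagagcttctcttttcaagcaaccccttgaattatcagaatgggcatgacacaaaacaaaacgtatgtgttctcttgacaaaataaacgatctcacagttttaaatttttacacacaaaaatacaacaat
Cyp26a1 promoter: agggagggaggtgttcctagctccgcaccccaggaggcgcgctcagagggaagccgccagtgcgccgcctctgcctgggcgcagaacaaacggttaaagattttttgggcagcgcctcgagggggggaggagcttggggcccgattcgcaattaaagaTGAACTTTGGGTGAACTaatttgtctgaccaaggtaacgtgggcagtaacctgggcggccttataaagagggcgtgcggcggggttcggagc
Rarb site: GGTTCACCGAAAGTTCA
The sites were direct repeats of any of the hexamers AGGTCA and AGTTCA as well as GGGTCA plus the variant GGTTCA, the form that Rar and Rxr pairs are known to bind, searched on both strands with spacings of 1, 2 or 5 bases in windows from 250 bases before to 50 bases after the start. The repeat with a spacing of 5 lay 92 to 76 bases before the start of Cyp26a1, read on the minus strand, and again 25 to 41 bases after the start of Rarb, at chr15:11336416-11336432 on the plus strand. Of 33469 windows of this length, 128 held such a repeat, or 0.382%. No repeat with any of these spacings was found in the windows of the other 7 members, Cyp26c1 included, while a spacing of 1 occurred in 0.233% and a spacing of 2 in 0.17% of all windows. The windows of the neighbours also differed in base composition, with 38% G and C and 4 CpG in Cyp26c1 against 63.7% and 25 CpG in Cyp26a1. All 9 members matched a promoter entry by symbol. A match of letters is a description of the sequence and not a measured binding site.

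Cyp26c1 (ENSMUSG00000062432) was the lowest at E15 and the highest at E18. At E15 the 5 molars held 10.8, 2.20, 4.70, 12.4 and 5.59 normalized counts, from 2 to 20 counts per library. At E17 they held 24.0, 22.6, 71.5, 33.1 and 68.5 normalized counts. At E18 they held 185, 167, 271, 242 and 236 normalized counts. The ranges of the 3 stages did not overlap, and within E17 the values formed a lower set of 3 teeth, with both teeth of the shared embryo among them, and a higher pair. The stage means were 7.15 ± 4.31, 44.0 ± 24.1 and 220 ± 43.1 (SD, n = 5 each). The E17 mean was above the E15 mean by a log2 fold change of 2.55 (95% interval 1.52 to 3.59, edgeR quasi-likelihood fit), or 5.87-fold. The E18 mean was 4.95-fold the E17 mean (log2 fold change 2.31, 95% interval 1.58 to 3.04) and 29.1-fold the E15 mean. These are descriptions with no test, because the gene was chosen for its rise and because only 2 of the 5 E15 libraries reached the count level at which genes entered the fit, so that it entered through the later stage.

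Set against the summed dental epithelium markers, Cyp26c1 still was highest at E18. It held 1.31 ± 0.92 normalized counts per 1000 marker counts at E15, 4.13 ± 2.31 at E17 and 14.5 ± 3.46 at E18 (SD, n = 5 each). On this scale E15 (0.431 to 2.69) and E17 (2.17 to 6.79) overlapped, whereas E18 (9.63 to 19.3) lay above both. The markers themselves rose, with 8 of 8 tested epithelial genes higher at E17 than at E15 and 5 of 8 higher at E18 than at E17. Their part in the change of Cyp26c1 between E15 and E17 was not tested. Per 1000 mesenchymal marker counts Cyp26c1 held 0.257 ± 0.154 at E15, 2.02 ± 1.12 at E17 and 10.4 ± 1.54 at E18. On the mesenchymal scale E15 (0.0874 to 0.447), E17 (1.04 to 3.25) and E18 (8.34 to 12.6) did not overlap.

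Cyp26a1 (ENSMUSG00000024987), the enzyme known to be induced by retinoic acid in many embryonic tissues, was scarce before E18. The E15 molars held 8.67, 0, 7.05, 10.3 and 3.36 normalized counts, and the E17 molars 9.83, 13.6, 33.3, 4.27 and 14.4. The E18 molars held 50.8, 60.1, 42.4, 58.3 and 68.5. E15 and E17 overlapped, and all 5 E18 teeth lay above every earlier tooth. From E17 to E18 the log2 fold change of Cyp26a1 was 1.85 ± 0.41 (SE), or 3.61-fold, and from E15 to E18 it was 3.18 ± 0.49, or 9.06-fold. The filter on low counts passed the gene only through its E18 libraries, since 3 of 5 E17 and 0 of 5 E15 libraries reached its level. Without that filter the adjusted p was 0.0406 from E17 to E18 and 0.000932 from E15 to E18 (edgeR quasi-likelihood F test with Benjamini-Hochberg adjustment over all genes). With the filter the edgeR values were 0.0387 and 0.00085, which are descriptions and no test, because the gene entered through its high stage. The adjusted p from E17 to E18 was close to the threshold, and in 10 of 17 alternative settings it was above it. Among these 10 were leaving out any E17 tooth but replicate 3 and leaving out E18 replicate 2, 4 or 5. All 10 kept the filter on low counts, so they too are descriptions and no test. Over the 17 settings of edgeR and DESeq2 the adjusted p ran from 0.000475 to 0.109 and the log2 fold change from 1.62 to 2.40. Between E15 and E17 Cyp26a1 had too few counts for the fit, and without the filter the log2 fold change was 1.32 ± 0.66 (SE) and did not pass (adjusted p = 0.194, edgeR).

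**Figure D1:**
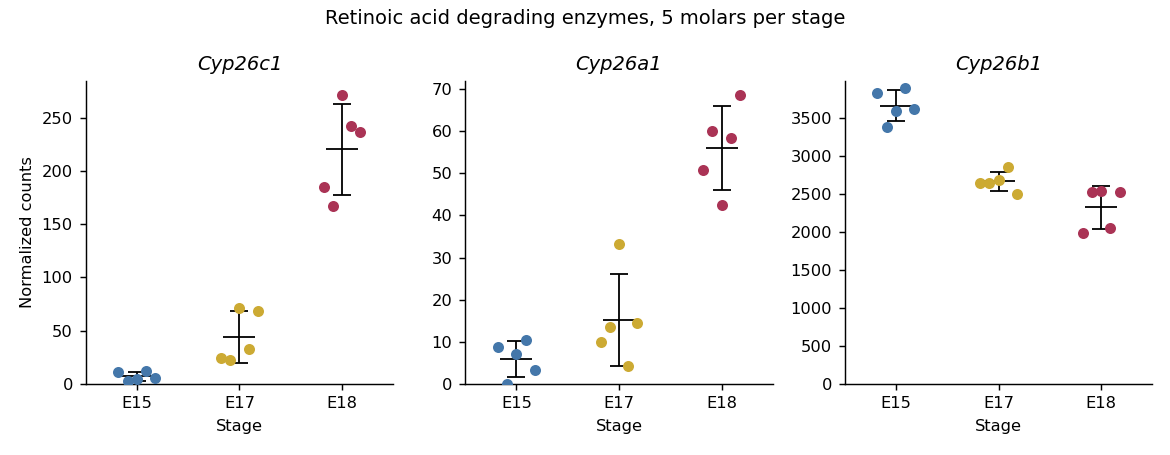
Normalized counts (y axis, from 0) of the retinoic acid degrading enzymes Cyp26c1, Cyp26a1 and Cyp26b1 by stage (x axis), with 1 point per molar and bars for the mean and SD of 5 molars. Cyp26c1 and Cyp26a1 were highest at E18, with means of 220 and 56.0, while Cyp26b1 was highest at E15, with a mean of 3663.

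The neighbouring genes followed the same order of stages, and over the 15 molars the correlation of log2(normalized count + 1) was 0.912 (Pearson's r, a description over molars that share stage, library depth and dissection). After the mean of each stage was subtracted it was 0.713, and 0.543 without E15 replicate 2, which held 2 counts of Cyp26c1 and 0 of Cyp26a1. Over the 10 molars of E17 and E18 it was 0.492. E17 replicate 3 was the highest E17 tooth for both genes, whereas at E18 replicate 3 was the highest for Cyp26c1 (271) and the lowest for Cyp26a1 (42.4). The log2 ratio of Cyp26c1 to Cyp26a1, from counts with 1 added to each and not corrected for length, lay between -0.49 and 1.58 at E15, between 0.69 and 2.68 at E17 and between 1.45 and 2.65 at E18, so the stages overlapped.

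**Figure D2:**
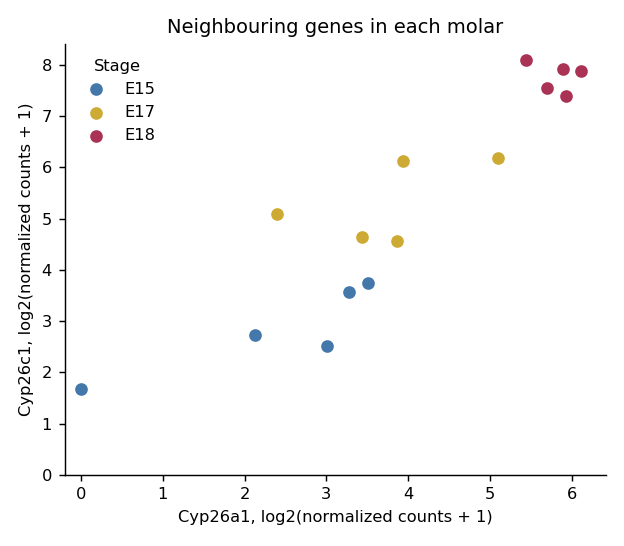
Cyp26c1 (y axis) against its chromosomal neighbour Cyp26a1 (x axis), both as log2(normalized count + 1), with 1 point per molar coloured by stage. The 5 E18 molars lie in the upper right corner, apart from the E15 and E17 molars, and r over the 15 molars was 0.912.

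Cyp26b1 (ENSMUSG00000063415), the third enzyme of the family, went the other way. At E15 the molars held 3825, 3376, 3599, 3892 and 3623 normalized counts, at E17 2638, 2648, 2690, 2849 and 2499, and at E18 1981, 2527, 2543, 2048 and 2519. Every E15 tooth lay above every later tooth, and E17 and E18 overlapped. Cyp26b1 fell 1.37-fold from E15 to E17 (log2 fold change -0.45 ± 0.06 SE, adjusted p = 0.000147, edgeR) and 1.57-fold from E15 to E18 (-0.65 ± 0.10, adjusted p = 0.000662, edgeR). From E17 to E18 the log2 fold change was -0.20 with a 95% interval of -0.39 to -0.00198 and did not pass after adjustment (adjusted p = 0.31, edgeR). Single mesenchymal markers differed, and Dlx2 (775, 868 and 1269) and Dlx5 (1530, 1393 and 1994) had their highest means at E18. The sum of the 10 mesenchymal markers was lower at E17 than at E15, with 4 of 10 lower and 0 higher, against 7.02% of all genes lower. Of the same 10, 0 were lower at E18 than at E17, and 4 were lower and 1 higher at E18 than at E15. Per 1000 counts of those markers Cyp26b1 held 133 ± 6.48 at E15, 122 ± 3.93 at E17 and 110 ± 12.6 at E18 (SD, n = 5 each), with ranges of 125 to 140 and 118 to 129 at E15 and E17 that overlapped. The part of the markers in this fall was not tested. Per 1000 epithelial marker counts Cyp26b1 held 655 ± 116 at E15, 250 ± 12.4 at E17 and 152 ± 18.3 at E18, without overlap.

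The synthesising enzymes changed in opposite directions. Aldh1a2 (ENSMUSG00000013584), the main source of retinoic acid in early embryonic mesoderm, held 1077, 954, 832, 1299.9 and 1109.6 normalized counts at E15. At E17 it held 491, 526, 671, 523 and 634, and at E18 478, 346, 414, 493 and 425. All E15 teeth lay above all later teeth, while the E17 and E18 ranges met at their edges. Aldh1a2 fell 1.84-fold from E15 to E17 (log2 fold change -0.88 ± 0.12 SE, adjusted p = 0.000232, edgeR) and 2.43-fold from E15 to E18 (-1.28 ± 0.14, adjusted p = 7.97e-05, edgeR). From E17 to E18 the value was -0.40 ± 0.13 and did not pass (adjusted p = 0.145, edgeR). Per 1000 mesenchymal marker counts its level was 38.3 ± 6.42 at E15, 26.1 ± 3.76 at E17 and 20.6 ± 3.40 at E18 (SD, n = 5 each). On that scale E15 (28.8 to 46.8) overlapped E17 (22.3 to 30.5), and E17 overlapped E18 (17.3 to 25.6). Per 1000 epithelial marker counts Aldh1a2 held 191 ± 57.2 at E15, 53.5 ± 8.43 at E17 and 28.5 ± 6.41 at E18, without overlap.

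Aldh1a3 (ENSMUSG00000015134), the enzyme known from the developing eye, nose and other epithelia, held 59.6, 43.9, 39.9, 44.5 and 129.7 normalized counts at E15. At E17 it held 172, 181, 154, 204 and 198, and at E18 447, 554, 401, 679 and 649.6. The 3 stages did not overlap, although E15 replicate 5 stood well above the other E15 teeth. Aldh1a3 rose 2.88-fold from E15 to E17 (log2 fold change 1.53 ± 0.28 SE, adjusted p = 0.00222, edgeR) and again from E17 to E18 (1.59 ± 0.16, adjusted p = 0.00101, edgeR), and the E18 level was 8.64-fold that of E15 (3.11 ± 0.33, adjusted p = 6.62e-05, edgeR). Of the members tested in both steps, Aldh1a3 and Crabp1 rose in each. Per 1000 epithelial marker counts Aldh1a3 held 11.2 ± 6.24 at E15, 17.1 ± 2.32 at E17 and 35.3 ± 5.69 at E18 (SD, n = 5 each). On that scale E15 (5.87 to 22.0) overlapped E17 (14.0 to 19.6), and E18 (28.5 to 43.3) lay above both. Per 1000 mesenchymal marker counts Aldh1a3 held 2.30 ± 1.32 at E15, 8.34 ± 0.85 at E17 and 25.8 ± 4.73 at E18, without overlap.

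The binding proteins did not move together. Crabp1 (ENSMUSG00000032291), a cytoplasmic protein that is known to hold retinoic acid and to deliver it for breakdown, held 560.4, 379, 392, 435 and 415 normalized counts in the E15 teeth, 519, 574, 643, 716 and 654 in the E17 teeth and 806, 1019, 1180.4, 1272 and 1156 in the E18 teeth. E15 replicate 1 reached into the E17 range, and all E18 teeth lay above all E17 teeth. Crabp1 rose 1.43-fold from E15 to E17 (log2 fold change 0.51 ± 0.12 SE, adjusted p = 0.00829, edgeR), 1.75-fold from E17 to E18 (0.81 ± 0.13, adjusted p = 0.0102, edgeR) and also from E15 to E18 (1.32 ± 0.15, adjusted p = 0.000103, edgeR). Per 1000 epithelial marker counts its level was 77.6 ± 15.3 at E15, 58.3 ± 7.01 at E17 and 70.8 ± 11.2 at E18 (SD, n = 5 each), without the order seen in the normalized counts. Per 1000 mesenchymal marker counts the mean of Crabp1 was 15.8 at E15, 28.4 at E17 and 51.3 at E18. On the mesenchymal scale E15 (13.6 to 20.2), E17 (25.3 to 30.8) and E18 (43.2 to 57.7) did not overlap. The part of the epithelial or the mesenchymal markers in the change of Crabp1 was not tested.

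Crabp2 (ENSMUSG00000004885), the relative that is known to hand retinoic acid to nuclear receptors, held 1022, 1050.4, 1172, 1084 and 1084 normalized counts in the E15 teeth, 1117, 939, 1078, 1394 and 895 in the E17 teeth and 829, 1009, 843, 1110.1 and 1094 in the E18 teeth. The stages overlapped. Crabp2 did not pass in any comparison, with a log2 fold change of 0.01 (95% interval -0.21 to 0.24) from E15 to E17 and of -0.15 (-0.45 to 0.14) from E17 to E18.

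The receptors gave flat values. Rara (ENSMUSG00000037992), a nuclear receptor found in most tissues, had the E15 values 1843, 1766, 2127, 2103 and 1669.9, the E17 values 1900.3, 1907, 1914, 1891 and 1954 and the E18 values 1858, 1909, 2674, 1813 and 2311 in normalized counts. The E17 teeth lay close together inside the E15 range, and E18 replicate 3, the library that stood apart, was the highest of all. Rarb (ENSMUSG00000017491), a receptor whose gene is itself a known target of retinoic acid, held 727, 786, 699, 767 and 805 at E15, 708, 825, 773, 741 and 748 at E17 and 817, 760.1, 657, 832 and 826 at E18. Neither receptor gene passed in any comparison. From E15 to E17 the 95% interval of the log2 fold change was -0.13 to 0.17 for Rara and -0.12 to 0.15 for Rarb, and from E17 to E18 it was -0.10 to 0.38 for Rara and -0.15 to 0.22 for Rarb.

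**Figure D3:**
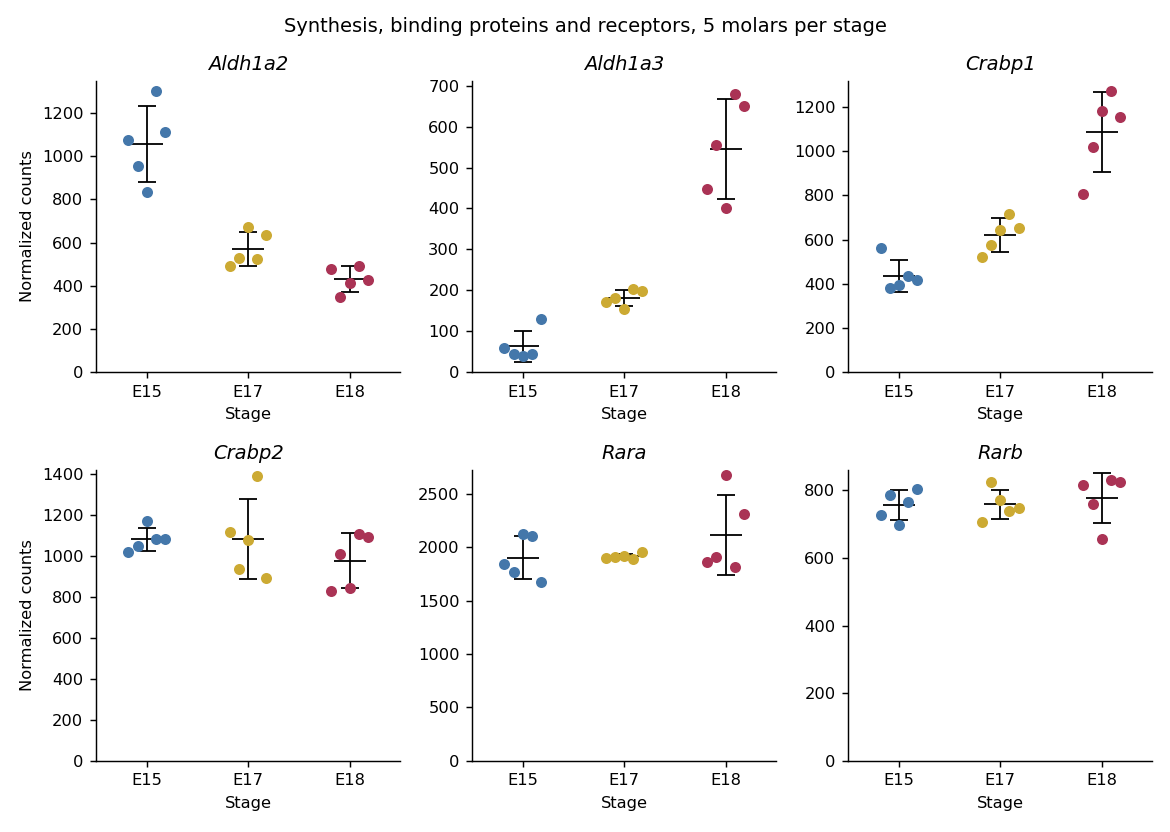
Normalized counts (y axes, from 0) of the synthesising enzymes Aldh1a2 and Aldh1a3, the binding proteins Crabp1 and Crabp2 and the receptors Rara and Rarb by stage (x axes), with 1 point per molar and bars for the mean and SD of 5 molars. Aldh1a2 was highest at E15, Aldh1a3 and Crabp1 were highest at E18, and the stages overlapped in Crabp2, Rara and Rarb.

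Counts over the group leave out Cyp26c1, which was chosen for its rise, and Cyp26a1, which failed the filter on low counts or passed it only through E18. Of the other 7 members, 4 changed between E15 and E17, with Aldh1a3 and Crabp1 higher and Cyp26b1 and Aldh1a2 lower. Of all 12627 genes tested there, 11.3% were higher and 7.02% lower at an adjusted p-value of 0.05 (edgeR). The median log2 fold change of these 7 members was 0.01 and that of all genes -0.01, while the median size regardless of direction was 0.45 and 0.16. Between E17 and E18, 2 of the 7 rose (Aldh1a3 and Crabp1), where 1.91% of all genes were higher. None of the 7 was lower at the adjusted threshold in edgeR or in DESeq2, against 0.629% of all genes, and 2 (Cyp26b1 and Aldh1a2) were lower at an unadjusted p-value under 0.05 in edgeR. Without E18 replicate 3 both still rose, with log2 fold changes of 1.67 for Aldh1a3 and 0.76 for Crabp1, and the values were 1.91 for Cyp26a1 and 2.21 for Cyp26c1. Over all genes 713 passed without that library in place of 323. Between E15 and E18, 2 of the 7 rose and 2 fell, where 14.2% of all genes were higher and 6.73% lower. The comparisons share libraries, and the members were chosen with these results known, so the counts describe the group and do not set it apart from other genes.

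**Figure D4:**
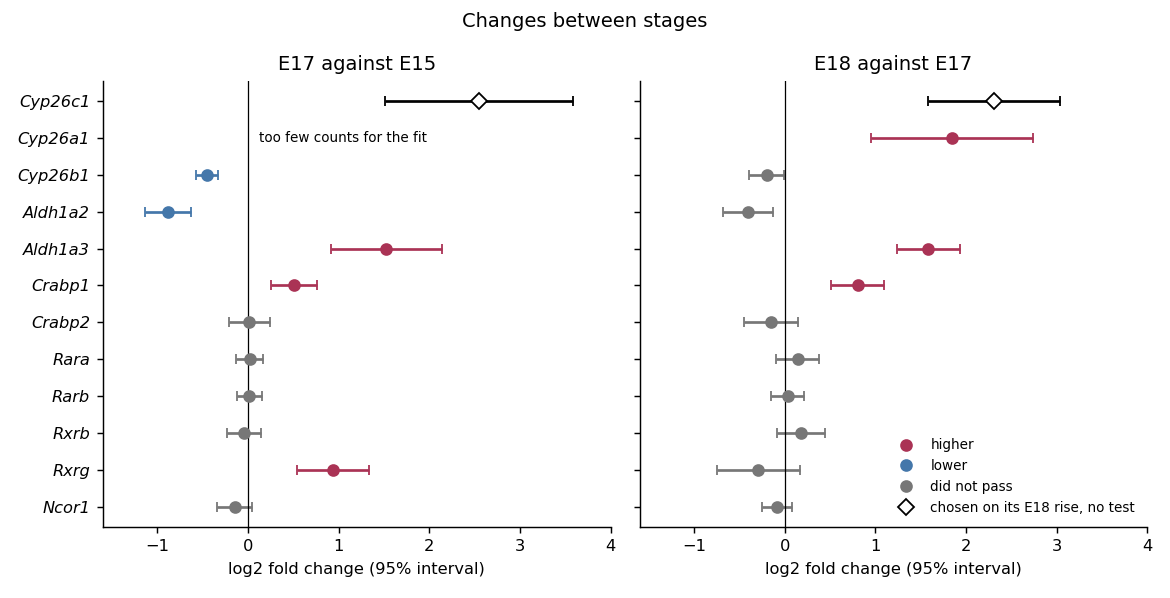
Log2 fold change (x axes) with its 95% interval for the members and for 3 further genes of the pathway (y axis), from E15 to E17 on the left and from E17 to E18 on the right, coloured by the call at an adjusted p-value of 0.05 (edgeR). Cyp26c1 is an open diamond because it was chosen on its rise, and Cyp26a1 has no value on the left, where it had too few counts, and on the right passed the filter on low counts only through E18. The colour of Cyp26a1 on the right is a description and no test.

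A wider list of 24 genes of the pathway was drawn up for carriers, interconverting enzymes, receptors, cofactors and responsive genes. Only 3 of them could be joined to rows by symbol, so the list gives no picture of uptake, storage or target genes. Rxrg, a partner receptor of the Rar proteins, had stage means of 62.2 ± 9.05 (E15), 118 ± 23.7 (E17) and 96.8 ± 25.9 (E18) normalized counts (SD, n = 5 each). It rose 1.92-fold from E15 to E17 without overlap (log2 fold change 0.94 ± 0.18 SE, adjusted p = 0.00297, edgeR). Its rise from E15 to E18 (0.65 ± 0.21, adjusted p = 0.0471, edgeR) was lost in 11 of 17 alternative settings. Rxrb, another partner receptor, had means of 1059.7 ± 119, 1027 ± 94.9 and 1163 ± 211 and did not pass in any comparison.

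The corepressor Ncor1, which unliganded Rar proteins recruit, had means of 6171 ± 928, 5541 ± 258 and 5235 ± 484 normalized counts (SD, n = 5 each) and did not pass in any comparison. Between E17 and E18 none of the 3 genes passed in edgeR or in DESeq2, and 0 had an unadjusted p-value under 0.05 in edgeR.

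The genes whose pattern was most like that of Cyp26c1 were sought among 357 genes with a symbol and a mean of at least 10 normalized counts. By Pearson's r of log2(normalized count + 1) over the 15 molars the 5 nearest were Crabp1 (0.950), the adhesion molecule Nectin1 (0.936), the epithelial transcription factor Foxi3 (0.928), the syndecan Sdc1 (0.928) and the hedgehog receptor Ptch1 (0.927). These values rest mainly on the differences between the stages, since after each stage's mean was subtracted they were 0.595, 0.171, 0.436, 0.511 and 0.283. By the latter measure the 5 nearest were Cyp26a1 (0.713), Aldh1a2 (0.71), Crabp1 (0.595), Fam20a (0.578) and the signalling ligand Shh (0.576). Over the 10 molars of E17 and E18 these values were 0.492, 0.724, 0.508, 0.504 and 0.311. Without E15 replicate 2, which held 0 counts of Cyp26a1, they were 0.543, 0.737, 0.553, 0.384 and 0.450. In both of these sets Aldh1a2 and not Cyp26a1 had the highest value of the 5. Aldh1a2 thus varied with Cyp26c1 between teeth of 1 stage and against it between stages, where r over the 15 molars was -0.81. Aldh1a3 differed from this, with 0.916 over the 15 molars and 0.03 after the stage means were subtracted. The latter value includes E15 replicate 5, where Aldh1a3 was 129.7 against 39.9 to 59.6 in the other E15 teeth. It was not recomputed without that tooth, so how Aldh1a3 varied with Cyp26c1 within stages is left undecided. The molars share stage, depth and dissection, and these values are descriptions.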

How the data were processed

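RNA was sequenced from 15 single rat molars at 3 stages. The authors filtered reads with FastQC and Trimmomatic and deposited expected counts from salmon (version 0.99.0 in the submitters' processing notes for E18, build Rnor_6.0) for 14185 genes, as whole numbers under mouse Ensembl identifiers, so rounding changed nothing. The transcript set and the route from rat transcripts to mouse identifiers are not given in the sources used here. Paralogs such as the Cyp26 and Aldh1a genes could share reads. The deposited HTSeq counts (STAR alignment, 32883 rat identifiers, E15 and E17) could not be joined to symbols and served only for the number of changed genes. Symbols came from the study's 399 listed pairs (356 with a row here) and from identifiers named with the members.

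Stages were compared with edgeR 4.0.16 (R 4.3.3; TMM, filterByExpr, quasi-likelihood F test, Benjamini-Hochberg over all genes, threshold 0.05), with only the libraries of both stages in a fit. Standard errors came from the F statistic. Levels were divided by size factors of DESeq2 1.42.0. The scripts were tested on simulated data. The members, gene lists and tests were chosen with earlier results of these data known. Named were the 9 members, those of a wider retinoic acid list that passed a test or are receptors, and the genes most like Cyp26c1; 1 further gene of the pathway is not reported here. Promoter windows came from RefSeq (GRCr8) and were matched by symbol. Within stages, chi-square per gene between libraries was 6.33 or more in 30 pairs, so none was a repeated deposit. Nothing in the labels says whether embryos of a stage came from separate litters, and p-values measure the spread between teeth. Count floors cover counting error only. Alternatives were DESeq2's Wald test and size factors, other filters, 1 fit over 15 libraries, leaving out each tooth, summing both teeth of the shared embryo and, added after seeing the data, side as a covariate and leaving out E18 replicates 1 and 3.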

Additional observations from a re-analysis of the deposited data

Results flagged for a closer look

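Aldh1a3 in E15 replicate 5 held 129.7 normalized counts, while the other 4 E15 teeth held 39.9 to 59.6, and the gap to the nearest of them was larger than Dixon's 95% critical value allows. Of 36 groups of 5 libraries examined in this way it was the 1 that met the criterion, where 1.8 are expected by chance. Without that tooth the log2 fold change of Aldh1a3 from E15 to E17 was 1.93 (adjusted p = 2.89e-05, edgeR) in place of 1.53.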

How the results depend on the processing

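Of 447 recomputed changes of the members, 431 counted as unchanged. For Cyp26c1, which has no test, this meant the same direction and a shift smaller than its SD within stages on the log2 scale. For the other members it meant the same direction and the same side of the threshold. The 10 that lost the threshold were all Cyp26a1 from E17 to E18, in settings with the filter on low counts, where its values are descriptions and no test. The 6 that turned sign were changes from E15 to E17 near 0 with 1 tooth left out, where the log2 fold change ranged from -0.0255 to 0.0619 for Rara, from -0.0177 to 0.0381 for Rarb and from -0.0949 to 0.0753 for Crabp2; among the further genes Rxrb ranged from -0.10 to 0.00295. The number of changed genes moved more. From E15 to E17 it was 2315, and 1514 with 1 fit over 15 libraries; with 1 tooth left out it was 1746 (E17 replicate 2) to 2881 (E15 replicate 3). From E17 to E18 it was 323, 665 with the Wald test of DESeq2, 212 with both teeth of the shared embryo summed, 141 (without E17 replicate 3) to 713 (without E18 replicate 3) with 1 tooth left out, and 1072 without E18 replicates 1 and 3. From E15 to E18, 2656 became 2028 (without E15 replicate 4) to 3567 (without E18 replicate 3). The cause was not tested. With any 1 tooth left out the members called, of the 7 counted, numbered 4 in E15 to E17, 2 in E17 to E18 and 4 in E15 to E18. A minimum of 10 counts in every library removed Cyp26c1 or Cyp26a1. Depth limits Cyp26a1 and Cyp26c1 before E18, with as few as 0 and 2 counts in a library. No paired analysis was possible because replicates were numbered by accession and the numbers join no teeth of different stages.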
